A study of Mus musculus with 7 samples.

Results

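The type I interferon-stimulated genes were examined in type 2 innate lymphoid cells (ILC2s), tissue-resident lymphocytes without antigen receptors that bear the interleukin 33 receptor ST2. The 40 genes were a written list of antiviral and regulatory genes known to respond to type I interferon, matched by symbol to the 55335 gene identifiers of the deposited count table, and all 40 were found there. RNA came from CD45+ lineage-negative ST2+ cells sorted from mouse hearts, in 3 libraries of naive hearts (replicates 1 to 3) and 4 libraries of cardiac allografts (replicates 1 to 4) taken on day 7 after transplantation. The grafts were Balb/C hearts placed in C57BL/6 recipients, a combination that is rejected acutely. Each library pooled the ILC2s of 4 to 7 hearts, so the pools and not the animals were the replicates, and p-values measure the spread between pools only. The labels gave neither the strain of the naive hearts nor the age or sex of any animal, and they did not say whether sorted cells of a graft came from donor or recipient. No genetic change or drug was named in either group, and the time label of 7 days stands on the naive samples too.

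Type I interferons signal through a receptor of 2 chains, IFNAR1 and IFNAR2, whose kinases JAK1 and TYK2 activate a transcription factor complex with the subunits STAT2 and IRF9. The complex binds the interferon-stimulated response element in the promoters of its target genes. The targets encode sensors of viral RNA, enzymes that degrade or edit RNA, membrane proteins that block viral entry or release, and feedback regulators of the pathway. Many of them also respond to interferon gamma, and some are expressed in lymphocytes without stimulation.

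The library labelled naive replicate 2 stood apart from the other 6, and log2 fold changes and counts of members called are given with and without it. Its 12 ILC2 markers summed to 1169 CPM (counts per 1000000 of the library total), against 11363 and 15482 CPM in naive replicates 1 and 3 and 11513 to 12162 CPM in the allografts, and Il13 was at 0 counts in it. Its 8 kidney tubule markers summed to 12534 CPM, against 68.7 and 421 CPM in the other naive libraries and 99.0 to 142 CPM in the allografts. Mitochondrial transcripts took 26.5% of its counts and 2.04% to 3.11% in the other 6. Total counts ran from 29107326 to 53044907, so that 3 counts, the most that a count of 0 allows, were 0.0566 to 0.103 CPM. These limits, and folds given below as at least a value, cover counting error only, since the amplified cDNA carried no molecular identifiers. Genes with a count numbered 15820 and 13864 in naive replicates 1 and 3, the fewest of all libraries. They numbered 20254 in naive replicate 2 and 19235 to 21354 in the allografts.

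Short promoter stretches are shown for 6 members that stand for the contrasts described below. Ifit1, Ifit3 and Ifit3b belong to the family with the widest spread between libraries, Isg15 and Oas3 were low in every library, and Bst2 was high in all 7. Each line runs 5′ to 3′ on the strand of the gene. Capitals mark every match to the core of the interferon-stimulated response element, searched on both strands as GAAA, any 2 bases and GAAA, so that overlapping matches merge.
Ifit1: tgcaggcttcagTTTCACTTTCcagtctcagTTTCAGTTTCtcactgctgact
Ifit3: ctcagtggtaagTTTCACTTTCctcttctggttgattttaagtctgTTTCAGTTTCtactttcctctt
Ifit3b: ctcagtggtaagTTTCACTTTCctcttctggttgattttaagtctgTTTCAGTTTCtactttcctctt
Isg15: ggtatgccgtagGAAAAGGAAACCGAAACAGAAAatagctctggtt
Oas3: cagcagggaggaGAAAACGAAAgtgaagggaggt
Bst2: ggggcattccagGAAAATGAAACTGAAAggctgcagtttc

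These stretches are from RefSeq promoters of build GRCm38.p6. They lie at chr19:34640773-34640825 (Ifit1, plus strand), chr19:34583361-34583428 (Ifit3, plus), chr19:34607757-34607824 (Ifit3b, plus), chr4:156200863-156200908 (Isg15, minus), chr5:120777713-120777746 (Oas3, minus) and chr8:71537575-71537614 (Bst2, minus). All 6 lie upstream of the annotated start, the nearest ending 45 bases before it. The stretches of Ifit3 and Ifit3b were identical over 68 bases. Promoters of 250 bases before to 50 bases after the start were matched for 30 of the 40 members. The core was present for 14 of these 30 genes (46.7%), against 3.99% of the 27025 genes with a promoter in the table. The shorter core of the gamma-activated site, TTCNNNGAA, which reads the same on both strands, was present for 9 of the 30 (30.0%), against 9.55% of all genes. The other members with a response element core were Ddx58, Eif2ak2, Ifih1, Ifitm2, Ifitm3, Oas1a, Rsad2 and Trim30a. No promoter was matched for Dhx58, Ifi27l2a, Mx1, Mx2, Oas2, Parp9, Parp14, Rtp4, Usp18 and Zbp1.

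The levels of the members covered a wide range. By mean FPKM over the 7 libraries 11 of the 40 exceeded 10 FPKM, 20 lay between 1 and 10 FPKM and 9 lay under 1 FPKM. On the FPKM scale, which is per gene length and can be compared between genes, 10 to 12 members exceeded 10 FPKM in each allograft library and in naive replicates 1 and 3, and 7 did in naive replicate 2. The 8 highest by mean over the 7 libraries were Ifitm2 (175 FPKM), Ifitm3 (75.0), Ifi27l2a (69.9), Ifi35 (67.7), Bst2 (59.9), Lgals3bp (25.1), Samhd1 (22.9) and Isg20 (16.5). The same 8 genes led without naive replicate 2, in the order Ifitm2 (131 FPKM), Ifi27l2a (77.6), Ifi35 (73.5), Bst2 (65.7), Ifitm3 (37.0), Lgals3bp (27.7), Samhd1 (26.3) and Isg20 (18.5). The means of the neighbours Ifitm3, Ifi27l2a, Ifi35 and Bst2 lay closer together than the SD between naive libraries. The 4 membrane restriction factors (Bst2 and the 3 IFITM genes) summed to 164, 773 and 139.75 FPKM in naive replicates 1 to 3 and 241 to 346 FPKM in the allografts, the largest share of any role. The 4 IFIT genes summed to 5.52, 74.2 and 0 FPKM and to 2.08 to 3.44 FPKM. At the other end, Oas2 (0.0608 FPKM), Mx2 (0.134), Oasl2 (0.227), Mx1 (0.319), Oasl1 (0.361), Ifi44 (0.427), Ifih1 (0.526), Ifit2 (0.536) and Cmpk2 (0.991) averaged under 1 FPKM. Members at or under 3 counts numbered 9 of 40 in naive replicate 1, 1 in naive replicate 2, 18 in naive replicate 3 and 2 to 3 in each allograft. Among the 38 members that passed the low-count filter the share was 18.4%, 2.63% and 42.1% in naive replicates 1 to 3 and 2.63% in each allograft. Among all 17015 genes tested it was 21.9%, 11.6% and 30.2%, and 2.88% to 7.87% in the allografts. All 40 members together took 0.107% to 0.125% of the counts of a naive library and 0.139% to 0.159% of those of an allograft. The groups did not overlap on this scale, which is a share of the raw totals. The TMM factors, not applied here, were 0.724 for naive replicate 2 and 1.05 to 1.07 for the allografts. Dividing by them would bring naive replicate 2 into the range of the allografts. In summed FPKM the groups did overlap, with 429, 964 and 359 in naive replicates 1 to 3 and 600 to 739 in the allografts.

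**Figure D1:**
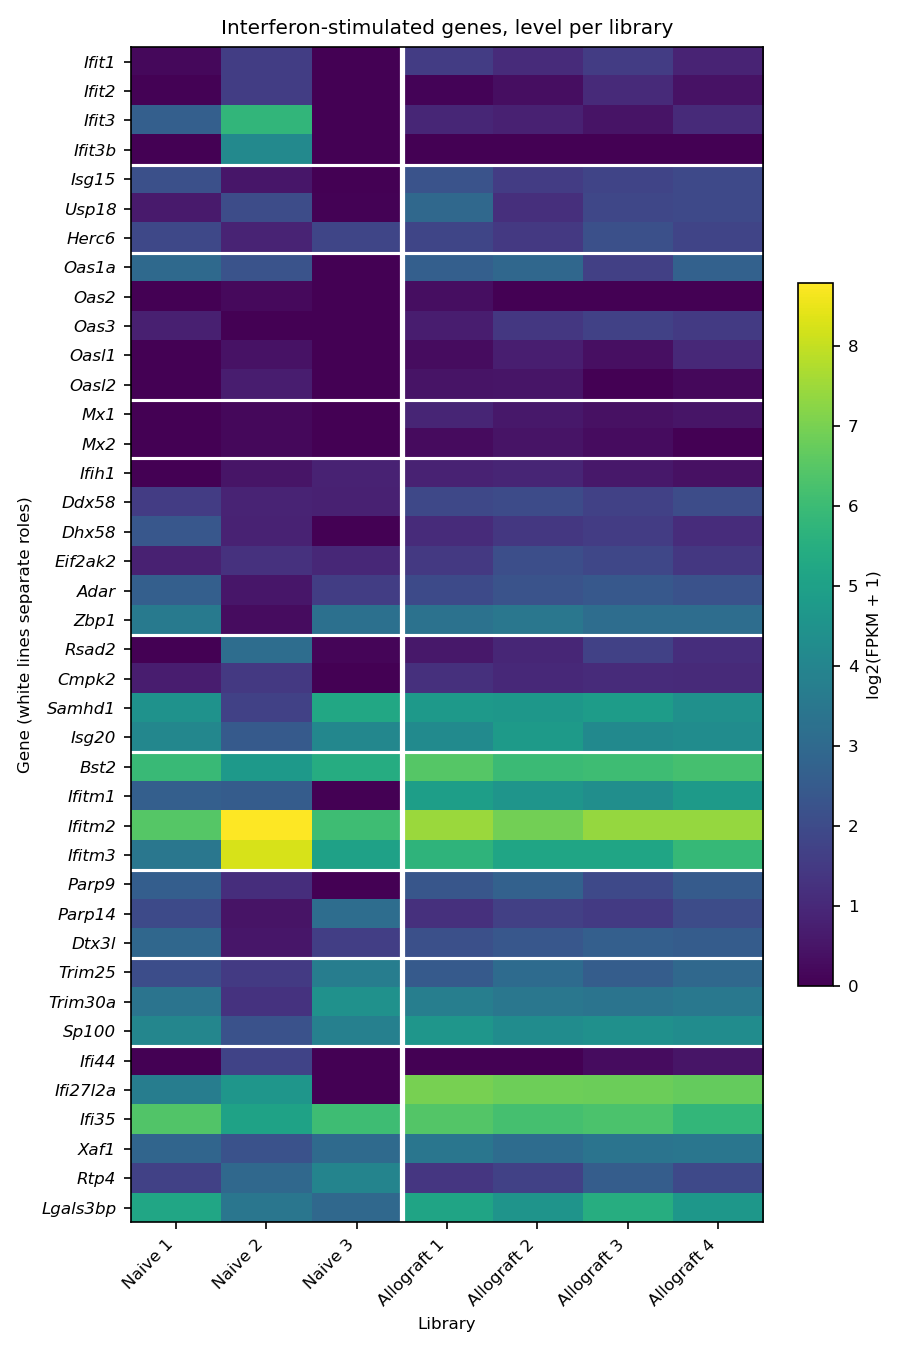
Level of each of the 40 interferon-stimulated genes (rows, grouped by role) in each of the 7 libraries (columns), as log2(FPKM + 1). Ifitm2, Ifi35 and Bst2 are bright across the map, the IFIT, OAS and Mx rows are dark in naive replicate 3, and naive replicate 2 stands out for Ifitm2, Ifitm3, Ifit3 and Ifit3b.

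No member passed the test between allograft and naive hearts. With edgeR's quasi-likelihood test over all genes, 0 of the 38 members that passed the low-count filter had an adjusted p under 0.05, where 0.0353% of all genes tested did (6 of 17015). At an unadjusted p under 0.05 there was 1 member, Ifit3, against 10.3% of all genes. DESeq2 called 1 of 34 members, also Ifit3, against 6.66% of all genes to which it gave an adjusted p. The median log2 fold change (allograft over naive) of the 38 was 0.44, beside -0.014 over all genes, with 26 above 0 and 12 below. With DESeq2 size factors both medians moved down, to 0.24 and -0.20. Oas2 and Ifit3b did not pass the filter.

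Without naive replicate 2, 1 of 38 members passed, Mx1, against 3.10% of 18037 genes. At an unadjusted p, 7 members were higher in allografts (Mx1, Eif2ak2, Ifitm2, Mx2, Oasl2, Usp18 and Oasl1) and 1 was lower (Parp14), that is 18.4% and 2.63% of the members against 15.6% and 4.67% of all genes. The median of the 38 was then 0.63, beside 0.23 over all genes, and it was also 0.63 with the 4 members that had 0 counts in both remaining naive libraries set to their lower bound. The sign of the log2 fold change differed between these fits for 11 members.

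The groups did not overlap for 9 members, all higher in the allografts. That is 23.7% of the 38 tested, where 12.5% of all genes were higher in every allograft than in every naive library, and 0 members were lower throughout, where 2.15% of all genes were. With CPM scaled by the TMM factors, Eif2ak2 overlapped and 8 remained (21.1%, against 10.6% of all genes). Without naive replicate 2, the groups did not overlap for 18 members, all higher (47.4% against 21.0% of all genes), and for 0 lower (against 7.15%). A member had to be present in some library to pass the filter, so these counts are a description and no test of the list.

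The separated members were not one functional family. Ifi27l2a, a small membrane protein strongly induced by interferon, had 6.47, 11.7 and 0 CPM in the naive libraries, in the order of replicates 1 to 3, and 67.1, 60.02, 59.1 and 55.2 CPM in allograft replicates 1 to 4. Its 4 allograft libraries lay within 1.21-fold of one another, and every one was more than 4 times the highest naive value. Naive replicate 3 held 0 counts, where naive replicates 1 and 2 held 343 and 531. The log2 fold change was 2.93 (SE 1.55, edgeR adjusted p = 0.617), and 4.20 (SE 1.81, adjusted p = 0.254) without naive replicate 2. The gene lies at chr12:103442167-103443680 (GRCm38, minus strand).

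Ifitm1, a membrane protein that restricts viral fusion with the cell, showed the same order of groups. It had 6.60, 5.80 and 0 CPM in the naive and 37.3, 28.8, 24.4 and 34.05 CPM in the allograft libraries. Again naive replicate 3 held 0 counts and the allografts lay close together. Allografts over naive hearts gave 2.62 on the log2 scale (SE 1.53, adjusted p = 0.670), and 3.22 without naive replicate 2 (adjusted p = 0.358).

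Bst2 (tetherin), which holds budding virus at the cell surface, had 63.4, 24.8 and 43.5 CPM in the naive and 92.5, 65.2, 68.3 and 75.4 CPM in the allograft libraries. The highest naive library came within 2 CPM of the lowest allograft. Sp100, a component of nuclear bodies, had 131, 29.8 and 113 CPM in the naive and 204, 158, 177 and 158 CPM in the allograft libraries. Both genes were abundant in every library, and their differences were small. On the log2 scale the difference was 0.64 (SE 0.32, adjusted p = 0.584) for Bst2 and 0.84 (SE 0.41, adjusted p = 0.579) for Sp100. It was 0.46 and 0.47 without naive replicate 2.

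Xaf1, which antagonises an inhibitor of apoptosis, had 33.6, 18.5 and 37.8 CPM in the naive and 54.3, 41.3, 50.5 and 54.01 CPM in the allograft libraries. Isg20, an exonuclease of single-stranded RNA, had 33.9, 9.43 and 32.8 CPM in the naive and 37.8, 57.06, 36.3 and 39.5 CPM in the allograft libraries. For Isg20 allograft replicate 2 was well above the other 3, which lay close to naive replicates 1 and 3. Log2 fold changes were 0.58 (SE 0.31, adjusted p = 0.625) for Xaf1 and 0.64 (SE 0.43, adjusted p = 0.727) for Isg20, and 0.44 and 0.31 without naive replicate 2.

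**Figure D2:**
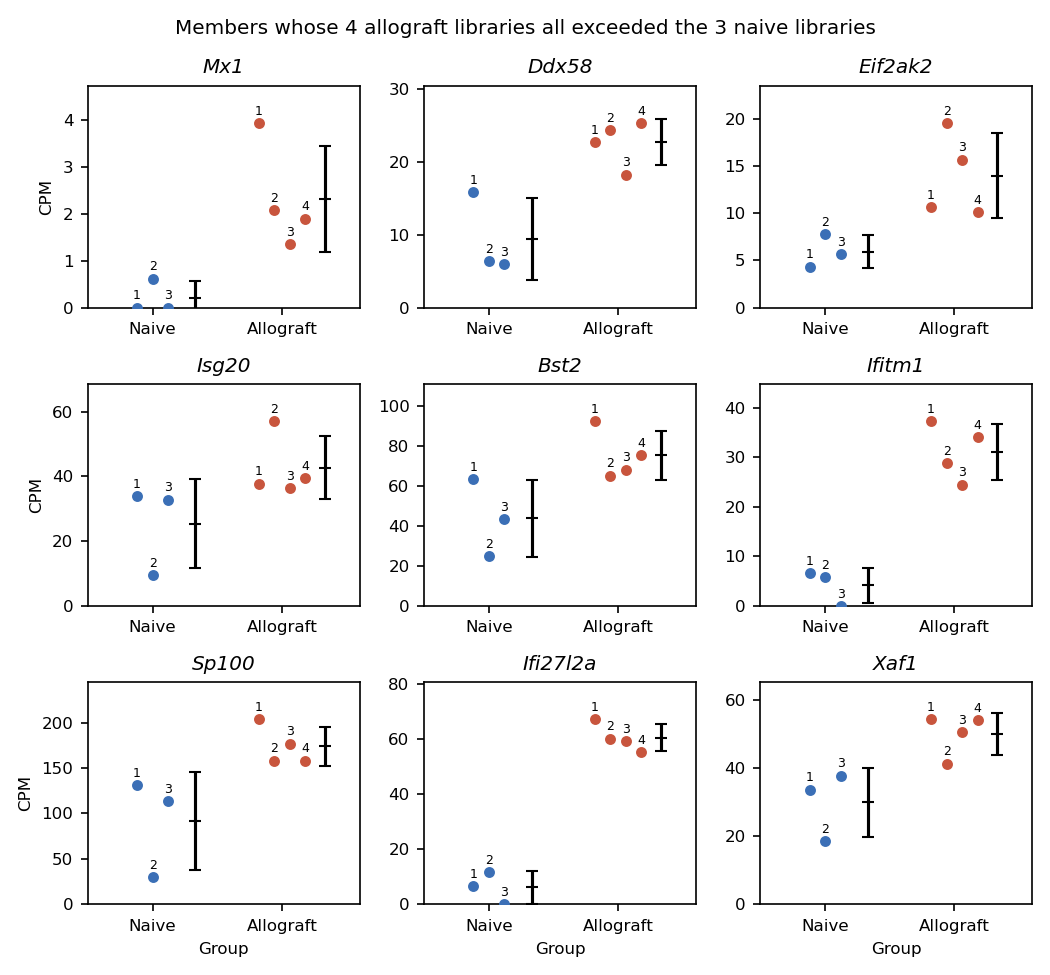
CPM per library of the 9 members whose 4 allograft libraries all exceeded the 3 naive libraries, with the replicate number beside each point and the group mean ± SD at its right. The gap is widest for Ifi27l2a and Ifitm1 and narrow for Bst2, Isg20 and Xaf1.

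The sensors of double-stranded RNA differed from one another. Ddx58 encodes RIG-I, which detects viral RNA with a triphosphate end, and had 15.9, 6.40 and 6.01 CPM in the naive and 22.7, 24.4, 18.3 and 25.4 CPM in the allograft libraries. All allografts were above all naive libraries. The log2 fold change between the groups was 1.11 (SE 0.52, edgeR adjusted p = 0.547), and 1.02 (adjusted p = 0.327) without naive replicate 2. Ifih1, which encodes the sensor MDA5, had 0, 3.63 and 7.46 CPM in the naive and 7.61, 8.21, 4.63 and 3.02 CPM in the allograft libraries. Dhx58, which encodes their regulator LGP2, had 15.9, 2.90 and 0 CPM against 4.27, 6.48, 7.49 and 4.43 CPM. The naive libraries of Dhx58 spanned the allografts, and for Ifih1 2 allografts lay above every naive library and the other 2 within them.

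Eif2ak2, the kinase PKR that halts translation on binding double-stranded RNA, had 4.32, 7.80 and 5.67 CPM in the naive and 10.6, 19.5, 15.6 and 10.07 CPM in the allograft libraries. Its log2 fold change was 0.93 (SE 0.66, adjusted p = 0.740), and 1.43 (SE 0.58, adjusted p = 0.243) without naive replicate 2. Adar, the adenosine deaminase that edits double-stranded RNA, had 49.2, 3.96 and 18.9 CPM across the naive libraries and 27.5 to 40.6 CPM in the allografts. Zbp1, a sensor of Z-form nucleic acid, had 44.8, 0.835 and 33.6 CPM across the naive libraries and 31.4 to 41.9 CPM in the allografts. For Adar and Zbp1 naive replicate 2 was the lowest library and the sign depended on it, with a log2 fold change of 0.47 and 0.39 in all libraries and of -0.027 and -0.19 without it.

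The IFIT family takes part in the recognition of viral RNA that lacks the methylated cap of the host. The 4 IFIT genes, clustered on chromosome 19, were far higher in naive replicate 2 than in naive replicates 1 and 3. Ifit3 (chr19:34583531-34588731) had 10.7, 102 and 0 CPM in the naive and 1.86, 1.48, 0.783 and 2.20 CPM in the allograft libraries. Naive replicate 2 was 64.6 times the allograft mean, and naive replicate 1 was also above every allograft. Its log2 fold change of -5.10 (SE 2.00, adjusted p = 0.422, and adjusted p = 0.0423 by DESeq2) became -1.77 (adjusted p = 0.655) without that library. Over its 12 alternatives the adjusted p ran from 0.0423 to 1.

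Ifit3b, a near copy of Ifit3, had 36.2 CPM (1645 counts) in naive replicate 2 and 0 counts in the other 6 libraries. Of all 50-base stretches of Ifit3 transcripts, 51.2% also occurred in Ifit3b, and 44.95% of those of Ifit3b also occurred in other genes, chiefly Ifit3. How the authors' counting divided such reads is not given in the sources used here, so the split between both genes is uncertain.

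Ifit1 had 0.452, 5.93 and 0 CPM in the naive and 6.09, 3.39, 6.09 and 2.58 CPM in the allograft libraries. Ifit2 had 0.132, 8.68 and 0 CPM against 0.250, 1.14, 4.87 and 1.55 CPM. Naive replicate 2 lay within the allografts for Ifit1 and above all of them for Ifit2, and naive replicates 1 and 3 lay below every allograft for both genes. The log2 fold change of Ifit1 was 0.55 (SE 1.79) in all libraries and 4.28 (SE 1.79, adjusted p = 0.248) without naive replicate 2, and that of Ifit2 was -1.16 and 4.77 (adjusted p = 0.253).

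Rsad2 encodes viperin, which makes a chain-terminating nucleotide, and Cmpk2, its neighbour on chromosome 12, encodes a nucleotide kinase. Rsad2 had 0, 36.95 and 0.482 CPM in the naive and 2.39, 4.57, 11.4 and 6.25 CPM in the allograft libraries, and Cmpk2 had 3.00, 7.98 and 0 CPM against 6.47, 4.999, 5.36 and 5.22 CPM. Both were highest in naive replicate 2 and higher in every allograft than in naive replicates 1 and 3. Their log2 fold changes were -1.60 and 0.15 in all libraries, and 4.58 (adjusted p = 0.249) and 1.86 (adjusted p = 0.633) without naive replicate 2. Cmpk2 was also below 0 with DESeq2 size factors, at -0.18. Samhd1, which depletes the nucleotides that viruses need for DNA synthesis, was the most abundant member of this role, with 224, 22.7 and 392 CPM in the naive and 276, 257, 291 and 216 CPM in the allograft libraries. Apart from naive replicate 2 its groups were intermixed, and the log2 fold change was 0.23 in all libraries and -0.30 without that library.

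ISG15 is a ubiquitin-like protein that is joined to other proteins, HERC6 is the ligase for this in mice, and USP18 removes ISG15 and blocks the type I interferon receptor. Isg15 had 2.77, 0.352 and 0 CPM in the naive and 3.04, 1.605, 2.03 and 2.30 CPM in the allograft libraries. Naive replicate 1 lay within the range of the allografts, and the log2 fold change was 1.04 (SE 1.63, adjusted p = 0.914), and 0.68 without naive replicate 2. Usp18 had 1.79, 9.39 and 0.0918 CPM in the naive and 21.9, 4.07, 8.66 and 9.31 CPM in the allograft libraries. The allografts differed 5.38-fold among themselves, with replicate 1 the highest, and the log2 fold change was 1.06 (SE 1.42) in all libraries and 3.53 (SE 1.43, adjusted p = 0.243) without naive replicate 2. Herc6 had 28.8, 8.44 and 26.7 CPM across the naive libraries and 18.9 to 36.2 CPM in the allografts, with overlapping groups.

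The 2'-5' oligoadenylate synthetases make the messenger that activates RNase L. Oas3 had 5.86, 0 and 0 CPM in the naive and 5.11, 14.04, 18.3 and 14.8 CPM in the allograft libraries. Only allograft replicate 1 lay below naive replicate 1, and the log2 fold change was 2.75 (SE 2.18, adjusted p = 0.767), and 2.13 without naive replicate 2. Oas1a had 15.1, 7.78 and 0 CPM against 11.8, 14.5, 4.70 and 12.4 CPM, in overlapping groups, and shared 57.6% of its 50-base stretches with other genes, chiefly Oas1g. Oas2 had 0.879 CPM in naive replicate 2 and 1.29 CPM in allograft replicate 1, with 0 counts in the other 5 libraries. The related genes Oasl1 and Oasl2 had 0 and 1 count in naive replicate 1 and 0 counts in naive replicate 3. In the allografts Oasl1 had 0.659 to 3.06 CPM and Oasl2 had 0.0489 to 3.21 CPM, and naive replicate 2 had 1.01 and 4.51 CPM. The log2 fold change of Oasl1 was 1.72 (SE 2.09, edgeR adjusted p = 0.871) in all libraries. Without naive replicate 2 Oasl1 was at least 26.4-fold higher in the allografts (adjusted p = 0.0642), a bound that sets each of both remaining naive libraries at 3 counts.

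Mx1 and Mx2 encode dynamin-like GTPases that trap viral nucleocapsids, and common laboratory strains carry defective copies of both genes. Mx1 (chr16:97447035-97462907, minus strand) had 0, 0.615 and 0 CPM in the naive and 3.93, 2.07, 1.35 and 1.89 CPM in the allograft libraries. It was low in all 7 libraries, with 28 counts in naive replicate 2 and 55 to 173 counts in the allografts, and the groups did not overlap. Its log2 fold change was 2.92 (SE 2.08, adjusted p = 0.741). Without naive replicate 2, Mx1 was at least 36.8-fold higher (adjusted p = 0.0466), and over its 12 alternatives the adjusted p ran from 0.0466 to 1. Mx2 had 0, 0.637 and 0 CPM in the naive and 0.818, 1.57, 0.954 and 0 CPM in the allograft libraries, so that 1 allograft held none.

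Ifitm2 and Ifitm3, neighbours of Ifitm1 on chromosome 7 with the same known role, had the highest mean FPKM over all 7 libraries, and without naive replicate 2 Ifitm3 lay below Ifi27l2a, Ifi35 and Bst2. Ifitm2 had 65.3, 314 and 48.2 CPM in the naive and 135, 90.8, 127 and 126 CPM in the allograft libraries. Ifitm3 had 7.84, 223.5 and 24.5 CPM against 40.8, 27.6, 27.2 and 45.6 CPM. In both genes naive replicate 2 was far above every other library and naive replicates 1 and 3 were below every allograft. For Ifitm2 the log2 fold change was -0.71 (SE 0.76) in all libraries and 1.03 (SE 0.28, unadjusted p = 0.00892, adjusted p = 0.108) without naive replicate 2. For Ifitm3 it was -1.79 (SE 1.08) and 1.06 (SE 0.57, adjusted p = 0.335). Of the 50-base stretches of Ifitm2, 48.5% also occurred in other annotated genes, chiefly the overlapping gene Gm45717.

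**Figure D3:**
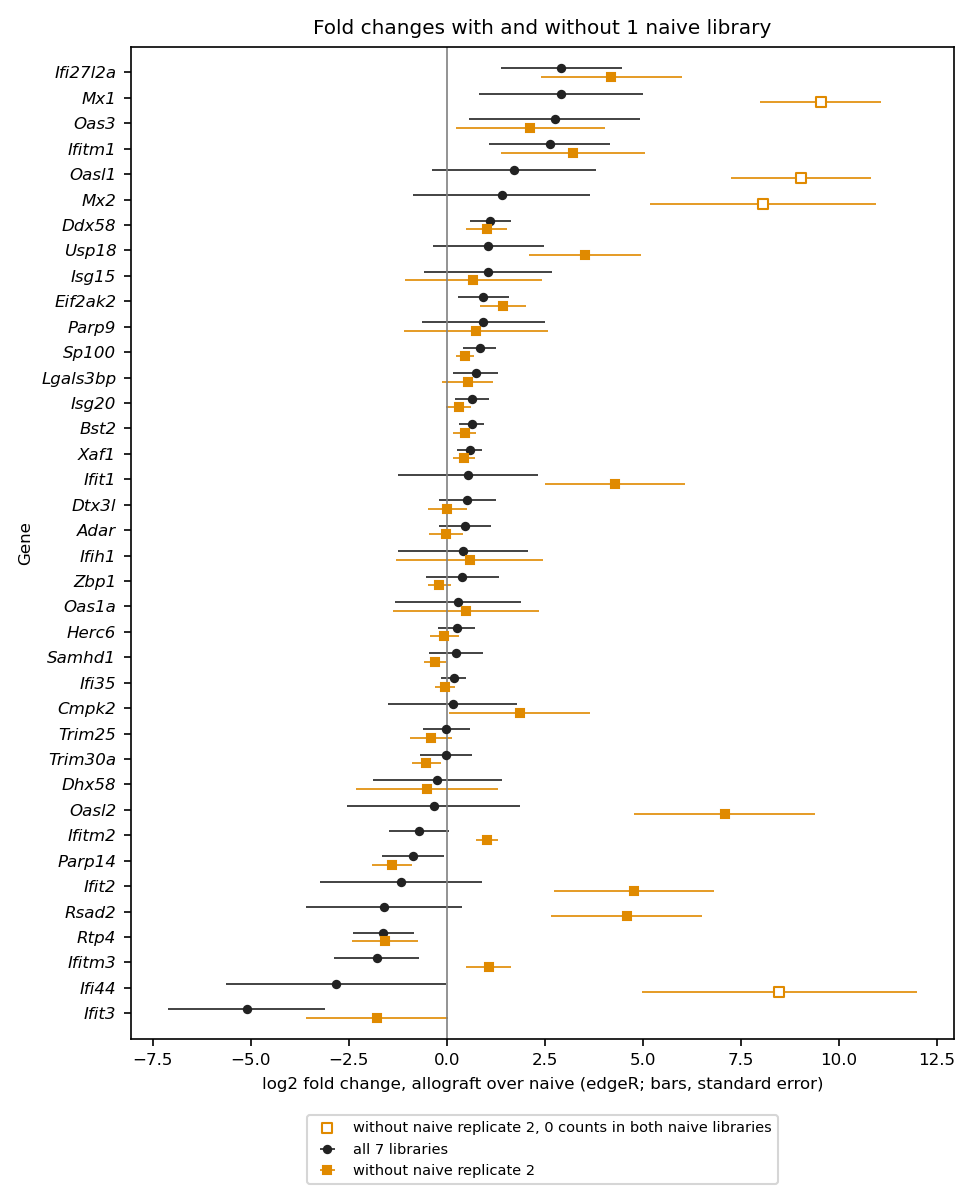
log2 fold change (allograft over naive) with its standard error for the 38 members tested, in all 7 libraries (black) and without naive replicate 2 (orange), and open squares for the 4 members with 0 counts in both remaining naive libraries, whose fitted values are no bound. Without that library Ifitm2, Ifitm3, Ifit2, Rsad2, Ifi44 and Oasl2 move from below to above 0. Adar, Zbp1, Samhd1, Herc6 and Ifi35 move from above to below 0, while Ddx58, Bst2, Sp100 and Rtp4 stay on their side.

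The PARP9 and DTX3L proteins form a complex that modifies proteins by ADP-ribosylation and ubiquitylation, and PARP14 is a related transferase. Parp14 had 31.4, 3.98 and 82.7 CPM in the naive and 14.1, 23.2, 19.6 and 33.5 CPM in the allograft libraries. Naive replicate 3 was the highest library and naive replicate 2 the lowest, and the log2 fold change was -0.86 (SE 0.79), and -1.40 (SE 0.51, unadjusted p = 0.0320, adjusted p = 0.219) without naive replicate 2. Parp9 had 28.7, 6.57 and 0 CPM against 15.9 to 31.6 CPM, and Dtx3l had 43.3, 2.73 and 13.8 CPM against 22.8 to 35.0 CPM. Both overlapped between the groups. Their exons overlap on opposite strands, and the use of strand in counting is not given in the sources used here.

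Trim25, the ligase that activates RIG-I, and Trim30a, which dampens signalling by Toll-like receptors, had the log2 fold changes nearest to 0 of the 38 members, at -0.017 and -0.020, and at -0.40 and -0.53 without naive replicate 2. Trim25 had 21.4, 11.4 and 79.4 CPM across the naive libraries and 31.3 to 49.6 CPM in the allografts, and Trim30a had 44.5, 6.48 and 96.2 CPM and 44.9 to 60.6 CPM. Naive replicate 2 was the lowest and naive replicate 3 the highest library for both genes.

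Among the remaining members, Ifi35, a cytoplasmic protein that binds other interferon-induced proteins, had 165, 61.3 and 127 CPM in the naive and 171, 145, 155 and 110 CPM in the allograft libraries. Lgals3bp, a secreted protein that binds galectins, had 116, 30.7 and 21.7 CPM against 111, 73.7, 143 and 78.8 CPM. Their groups overlapped, with log2 fold changes of 0.17 (SE 0.32) and 0.73 (SE 0.57), and of -0.046 and 0.54 without naive replicate 2. Rtp4, a chaperone of membrane receptors, had 5.39, 15.8 and 35.7 CPM in the naive and 3.98, 5.49, 12.4 and 6.97 CPM in the allograft libraries, and its log2 fold change was -1.61 (SE 0.78, adjusted p = 0.570), and -1.58 without naive replicate 2. Ifi44 had 15.8 CPM in naive replicate 2, 0 counts in the other naive libraries, and 0.0681, 0, 1.54 and 2.85 CPM in the allografts.

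The highest library was an allograft for 20 of the 38 members (52.6%, against 40.4% of all genes) and naive replicate 2 for 8 (21.1%, against 19.7%). Naive replicate 2 was the lowest library for 13 members (34.2%, against 31.3%). The 8 were Ifi44, Ifitm3, Ifit3, Rsad2, Ifit2, Ifitm2, Cmpk2 and Oasl2. The 13 were Isg20, Ifi35, Herc6, Xaf1, Zbp1, Bst2, Adar, Sp100, Samhd1, Trim30a, Parp14, Dtx3l and Trim25. Apart from Ifitm2 and Ifitm3, the first group had under 11 CPM in naive replicates 1 and 3. Each of the second group had counts in all 7 libraries. Within the allografts the CV of the 39 members with counts there ran from 8.16% (Ifi27l2a) to 200% (Oas2).

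Transcripts of other cell types also differed between libraries. The 6 B cell markers summed to 117, 6.22 and 0 CPM in the naive and 90.0 to 146 CPM in the allograft libraries, with Ms4a1 and Pax5 at 0 in all naive libraries and Cd79b alone giving 117 CPM in naive replicate 1. The 6 markers of conventional dendritic cells summed to 12.7 to 31.8 CPM in the naive and 79.4 to 103 CPM in the allograft libraries, with Itgax at 0 in all naive libraries. The 5 natural killer cell markers summed to 0.641 to 36.7 and 34.6 to 62.3 CPM, with Klra8 at 0 in all naive libraries. The 8 T cell markers summed to 321, 33.9 and 809 CPM in the naive and 482 to 565 CPM in the allograft libraries. Most of each sum came from Lat (231, 20.2 and 629 CPM, and 282 to 318 CPM) and Cd3g (79.0, 6.00 and 124 CPM, and 175 to 219 CPM). Cd3e had at most 1.24 CPM in any library. Of the 8 T cell markers, 2 to 3 were at 0 in each naive library and 0 to 3 in each allograft. With all libraries 0 markers of these 4 lists passed edgeR's test, and 7 were higher at an unadjusted p under 0.05, as were 6.41% of all genes. DESeq2 called Ms4a1, Pax5, Klra8 and Itgax higher, where it called 4.17% of all genes higher. Without naive replicate 2, 4 of 6 dendritic cell, 2 of 6 B cell and 1 of 5 natural killer cell markers passed edgeR's test as higher in the allografts. For T cell markers it was 0 of 8, and of all genes 3.00% passed as higher. In the same fit 2 macrophage markers (Cd68 and C1qa), 2 endothelial markers (Pecam1 and Vwf), 1 plasmacytoid dendritic cell marker (Siglech) and 1 fibroblast marker (Col3a1) were also higher. Of the markers of plasmacytoid dendritic cells, which express Bst2 strongly, Siglech was at 0 in naive replicates 1 and 3, 4.29 CPM in naive replicate 2 and 2.34 to 6.56 CPM in the allografts. That list of 6 summed to 29.2, 3551 and 456 CPM and to 139 to 192 CPM, and without Klk1, which is also a kidney gene, to 25.7, 62.5 and 154 CPM and to 75.4 to 101 CPM. The 10 identifiers of the macrophage and monocyte list summed to 209, 301 and 980 CPM and to 502 to 792 CPM. Most of each sum came from Ccr2 (206, 5.74 and 514 CPM, and 339 to 614 CPM) and Lyz2 (2.49, 183 and 432 CPM, and 122 to 191 CPM). Of the 10 identifiers, 8, 2 and 6 were at 0 in the naive libraries and 1 to 3 in each allograft. The 8 endothelial markers summed to 31.2, 298 and 6.97 CPM and to 37.6 to 48.2 CPM, and the 6 fibroblast markers to 0.0566, 141 and 114 CPM and to 15.1 to 71.5 CPM. The 7 cardiomyocyte markers summed to at most 9.22 CPM in any library, with Tnnt2, Myl2 and Mb at 0 in all 7. The part of these transcripts in the levels of the members was not tested, and in pooled cells fewer cells of a type and less RNA per cell cannot be told apart.

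Upstream genes of the pathway were taken from a list of 69. Of its 21 interferon ligands, 16 had 0 counts in all 7 libraries. Ifnb1 was found in allograft replicate 1 alone, at 0.159 CPM (7 counts). Ifng, which encodes interferon gamma, had 0, 1.85 and 0 CPM in the naive and 21.2, 23.5, 14.4 and 17.9 CPM in the allograft libraries. It was the only ligand to pass the filter and its groups did not overlap, and the log2 fold change was 4.39 (SE 2.18, adjusted p = 0.579). Without naive replicate 2 it was at least 307-fold higher (adjusted p = 0.0234), a bound for counting error only.

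Receptor and signalling transcripts were present in both groups. Ifnar1 had 126, 16.8 and 191 CPM in the naive and 177, 213, 172 and 165 CPM in the allograft libraries, and Ifnar2 had 29.03, 33.7 and 29.9 CPM against 42.9, 44.0, 32.1 and 38.1 CPM. For Ifnar1 naive replicates 1 and 2 lay below every allograft and naive replicate 3 within them, and for Ifnar2 it was naive replicate 2 that lay within them. Jak1 had 316, 42.8 and 303 CPM across the naive libraries and 288 to 350 CPM in the allografts, and Tyk2 had 16.7, 7.30 and 92.7 CPM and 48.1 to 55.04 CPM. Of the 6 receptor genes and of Jak1, Jak2, Tyk2, Stat2 and Irf9, 0 passed edgeR's test in either direction, with or without naive replicate 2, and 0 had an unadjusted p under 0.05 or were called by DESeq2 with all libraries.

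Irf9, which encodes the DNA-binding subunit of the complex, did not overlap between the groups, and Stat2 did. Irf9 had 21.02, 7.65 and 3.65 CPM in the naive and 34.1, 30.2, 34.1 and 24.0 CPM in the allograft libraries. Every allograft was higher than every naive library. The log2 fold change between the groups was 1.35 (SE 0.62, edgeR adjusted p = 0.532), and 1.28 without naive replicate 2. Stat2 had 15.1, 17.2 and 14.4 CPM across the naive libraries and 16.2 to 37.4 CPM in the allografts.

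Of the other lists, 0 of 6 IRF regulators, 0 of 9 tested sensors and adaptors of interferon induction, 0 of 6 negative regulators and 0 of 13 interferon gamma induced GTPases passed edgeR's test with all libraries. At an unadjusted p under 0.05 there were 3 higher (Irf8, Mb21d1 and Ptpn6) and 6 lower among them, of which 3 were GTPases. Of all genes tested, 6.41% were higher and 3.86% lower at that threshold. DESeq2 called Irf8 and Mb21d1 higher and Irf1, Mavs and Socs3 lower, where it called 4.17% of all genes higher and 2.49% lower. Without naive replicate 2, 1 IRF gene was lower (Irf1, edgeR adjusted p = 0.0437) and 1 GTPase was higher (Gbp3, at least 271-fold, adjusted p = 0.0234). In that fit 3.00% of all genes were called higher and 0.0998% lower. Separated groups, with allografts higher, were also seen for Irf8, Irf3, Mb21d1 (the DNA sensor cGAS), Ptpn6, Gbp3 and Gbp6, though Irf3 overlapped with TMM scaling. Mavs, the adaptor of RIG-I and MDA5, and Socs3, an inhibitor of cytokine receptors, were lower in every allograft. Of all genes, 12.5% were higher in every allograft than in every naive library and 2.15% were lower. Mavs had 27.1, 62.4 and 43.6 CPM in the naive and 14.6, 24.0, 6.93 and 9.96 CPM in the allograft libraries (log2 fold change -1.996, SE 0.60, adjusted p = 0.304, and -1.40 without naive replicate 2). Mavs was thus lower in every allograft where the sensor gene Ddx58 was higher in every one, in neither case past edgeR's threshold.

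**Figure D4:**
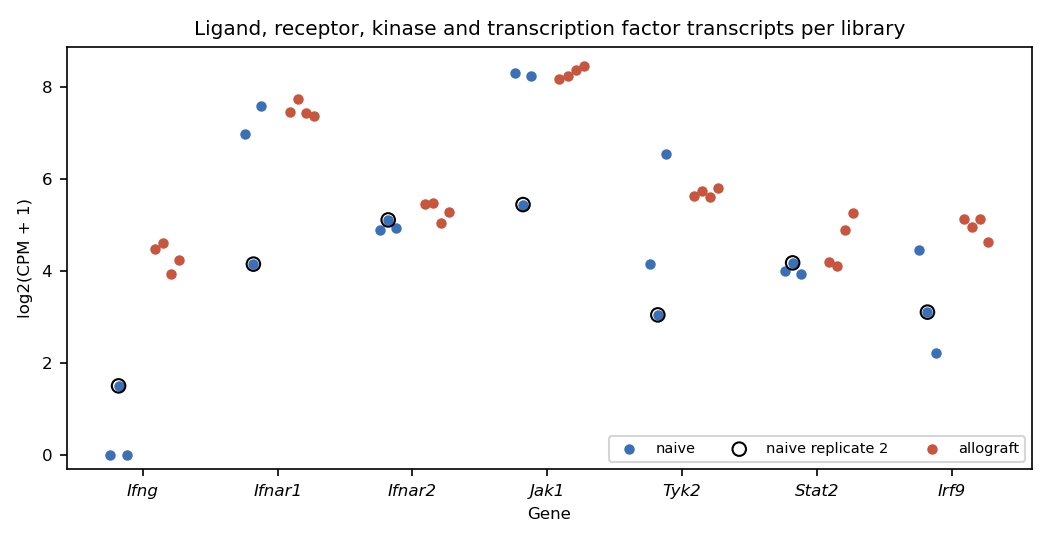
Transcripts of interferon gamma (Ifng), the type I interferon receptor chains (Ifnar1, Ifnar2), their kinases (Jak1, Tyk2) and the transcription factor subunits Stat2 and Irf9 per library, as log2(CPM + 1), with naive libraries in blue, allografts in red and naive replicate 2 circled. Ifng and Irf9 are higher in all 4 allografts than in all 3 naive libraries, while Jak1 and Ifnar1 are lowest in naive replicate 2.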

How the data were processed

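Bulk RNA was measured in 3 naive and 4 allograft libraries of sorted ILC2s. Per the labels' protocols, full-length cDNA was amplified with a single-cell kit. The submitters' processing notes name build mm10, FastQC 0.11.5, STAR 2.5.3a, StringTie 1.3.1c and DESeq2 1.16.1 without roles. The authors deposited whole-number counts per gene and FPKM for the same genes. CPM here is the count per 1000000 of the deposited total. Groups and replicate numbers came from the titles, and 0 columns were left over.

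Counts were tested with edgeR 4.0.16 (R 4.3.3, quasi-likelihood fit, TMM, filterByExpr, Benjamini-Hochberg adjustment over all 17015 genes, threshold 0.05). The procedure was tested on simulated data, which held no library that stood apart as naive replicate 2 did. SE is that implied by the F value. Alternatives were DESeq2 size factors, DESeq2 1.42.0, no filter, a mean of at least 50 counts, the replicate number as a block, and leaving out each library in turn. Where a group held 0 counts, folds are bounds against 3 counts per library and cover counting error only. Annotation was GENCODE M21 (GRCm38, the same assembly as mm10).

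All 40 members were named whatever their values. Values per library are given for those past the threshold, without overlap between groups, or among the 8 highest by FPKM, and for at least 1 of each role. Members and lists were chosen with earlier results of these data known. 1 gene of the pathway list is not reported here.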

Additional observations from a re-analysis of the deposited data

Results flagged for a closer look

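In the 4 allograft libraries, 101 values (members, upstream genes and marker sums) were examined for 1 library lying far outside the range of the remaining 3. This held for 7 of the values. Chance alone gives it for about 1 value in 20 if values are normally distributed. That rate does not hold where 3 libraries had 0 counts, as for Oas2 and Ifnb1. Isg20 had 57.06 CPM in allograft replicate 2 against 36.3 to 39.5 CPM in the others. Oas2 had 1.295 CPM in allograft replicate 1 and 0 counts in the others, and Ifnb1 had 0.159 CPM there and 0 counts in the others. Gbp4 had 74.44 CPM in allograft replicate 1 against 34.0 to 40.1 CPM, and Gbp3 had 20.81 CPM there against 15.5 to 15.8 CPM. Gbp5 had 0 CPM in allograft replicate 3 against 2.68 to 3.20 CPM. Ifnz had 0.5497 CPM in allograft replicate 4 against 0.0245 to 0.0909 CPM.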

How the results depend on the processing

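Leaving out 1 library at a time gave 0 to 560 genes past the threshold in all (6 with all libraries), 0 to 542 higher (5) and 0 to 18 lower (1), and 0 to 1 members (0). Leaving out the first naive library gave 107 of these genes, the second (naive replicate 2) 560, the third 7, and each allograft library 0. DESeq2 gave 1012 genes, 633 higher and 379 lower, and 1 member. The 1 lower gene was lost (0 lower) with DESeq2 size factors, without the low-count filter and at a mean of at least 50 counts. The replicate block gave 0 genes, 0 higher and 0 lower, and moved the median log2 fold change of the members from 0.44 to 1.14. Same-numbered libraries did not deviate together (correlations of 0.017, -0.020 and 0.036, against -0.087 to 0.076 for other pairs). No pairing by number was seen, which with so few libraries is no proof of its absence. Beyond Mx1 without naive replicate 2 and Ifit3 by DESeq2, 0 members crossed the threshold under the 12 alternatives.

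The log2 fold change of 19 members changed sign when 1 library was left out, and the cause was not tested. Over the 7 libraries left out in turn it ran from -0.027 to 1.42 for Adar, -0.41 to 1.86 for Cmpk2, -0.82 to 1.41 for Dhx58, -0.061 to 0.45 for Herc6, -0.046 to 0.39 for Ifi35, -3.38 to 8.47 for Ifi44, -0.16 to 1.14 for Ifih1, -0.0089 to 4.28 for Ifit1, -2.17 to 4.77 for Ifit2, -1.14 to 1.03 for Ifitm2, -2.32 to 1.06 for Ifitm3, -0.29 to 0.93 for Oas1a, -0.89 to 7.08 for Oasl2, -1.40 to 0.29 for Parp14, -2.15 to 4.58 for Rsad2, -0.30 to 1.03 for Samhd1, -0.40 to 1.07 for Trim25, -0.53 to 0.92 for Trim30a and -0.19 to 0.96 for Zbp1. The replicate block turned it to 1.17 for Dhx58, 3.51 for Ifi44, 1.13 for Ifit2, 0.13 for Ifitm2, 3.37 for Oasl2, 4.04 for Rsad2, 0.29 for Trim25 and 0.52 for Trim30a. Cmpk2 was -0.18 with DESeq2 size factors and also by DESeq2. At a mean of at least 50 counts Trim25 was 0.0071 and Trim30a 0.0047. Counts at or under 3 in a library cannot be told from 0, which held for 9, 1 and 18 of the 40 members in naive replicates 1 to 3 and 2 to 3 in each allograft. The total counts of naive replicates 1 and 3 were not the lowest of the 7 libraries, but their numbers of genes with a count were.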
